A study of Mus musculus with 30 samples.

Results

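Interferon-stimulated genes are the transcripts that cells raise when interferon reaches its receptors, and 37 of them, listed by symbol, were followed here in mouse macrophages and in stromal cells sorted on podoplanin (PDPN+ cells). All 37 symbols were found among the 50764 gene models of each deposited table, and each maps to 1 Ensembl gene. The list was set by gene function and not by a threshold on any value, though with earlier results of these data known. They comprise 18 antiviral effectors, 6 GTPases, 5 regulators and members of the ubiquitin-like pathway, 4 transcription factors, 3 RNA sensors and 1 chemokine.

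The series holds 30 libraries of polyA RNA in 10 groups of 3. The 4 PDPN+ groups are cells treated with BMS493 at 1 uM (a compound that holds retinoic acid receptors in their inactive state), cells from co-culture with macrophages, cells cultured across a transwell membrane from macrophages, and cells cultured alone. The 6 macrophage groups are cells treated with BMS493 at 1 uM, cells from co-culture with PDPN+ cells, transwell cells, cells treated with ATRA (all-trans retinoic acid, a receptor agonist) at 1 uM, cells cultured alone, and cells taken ex vivo from a lavage. Cultured cells were sorted straight into lysis buffer, macrophages on F4/80 and stromal cells on PDPN. The sources used here give no sex, age, strain, length of culture, vehicle or number of animals. Nothing states that replicates came from separate animals, and p-values therefore reflect only library-to-library spread, which may be technical. Whether macrophages and PDPN+ cells were together in the BMS493 cultures is not stated either. Each BMS493 group was therefore set against the co-culture and against the cells alone. Partner cell markers lay higher in every BMS493 library than in any library of the same cells alone. If the cells were together, contact and BMS493 cannot be told apart in the comparison with cells alone.

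Total counts ran from 29350158 to 54099085 per library. Adgre1, which encodes F4/80, lay at 1789 CPM (counts scaled to library size, with TMM scaling) or more in every macrophage library and at 67.1 CPM or less in every PDPN+ library. In batch mbb336 the 2 co-culture libraries carry each other's cell type in 1 of their labels. The titles were followed, with Adgre1 at 2699 CPM in the library titled as macrophages and 40.1 CPM in that titled as PDPN+. Traces of the partner cell type were present after contact, and less so in 1 of the transwell PDPN+ libraries. The 9 fibroblast markers summed to 690.5 to 1447 CPM in the macrophages with BMS493 and to 465 to 1179 CPM in the co-culture macrophages. In macrophages cultured alone they summed to 9.09 to 319.5 CPM. Batch mbb340 held the highest sums without contact, at 427 CPM in transwell, 249 CPM with ATRA and 319.5 CPM alone. In that library of cells alone Pdpn had 6082 reads, Dcn 2397 and Col1a1 92. The co-culture macrophages of that batch had 11188, 4294 and 2294 reads. The 8 macrophage markers summed to 1590 to 3695 CPM in PDPN+ cells with BMS493 and to 1559 to 2329 CPM in co-culture PDPN+ cells, against 61.2 to 110.2 CPM in PDPN+ cells alone. In transwell PDPN+ cells they summed to 543, 62.3 and 96.4 CPM.

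Type I interferons bind a receptor made of Ifnar1 and Ifnar2, whose kinases activate Stat2. With Irf9 it acts in a complex that binds the interferon-stimulated response element of target genes. Interferon gamma binds Ifngr1 and Ifngr2 and acts mainly through the gamma-activated site, raising guanylate-binding proteins and Irf1. Macrophages keep a low level of this programme without infection, and Irf7, itself a target, amplifies it.

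The RefSeq promoter windows of GRCm38.p6 (250 bases before to 50 bases after the annotated start) covered 29 of the 37 members. The core letters of the response element (GAAA, 2 bases of any kind, GAAA), read on either strand, were present in a window of 19 of these 29 genes (65.5%), against 1079 of 27025 genes with a window (3.99%). The palindromic letters TTCNNNGAA of the gamma-activated site were present in 8 of 29 members (27.6%), against 9.55% of all genes. A match describes the letters in the window and not a bound site. The 6 windows printed are those of genes the results turn on, 5′ to 3′ along the gene, with every match of either motif in capitals. The 4 that open the list belong to the guanylate-binding protein genes that fell together in culture and lie side by side on the forward strand of chromosome 3, at chr3:142530086-142530385 for Gbp7, chr3:142559794-142560093 for Gbp3, chr3:142594597-142594896 for Gbp2b and chr3:142620413-142620712 for Gbp2. The others, on the reverse strand, are Isg15 (chr4:156200769-156201068), which carries 3 overlapping matches, and Rsad2 (chr12:26456403-26456702), which was higher in culture.
Gbp7: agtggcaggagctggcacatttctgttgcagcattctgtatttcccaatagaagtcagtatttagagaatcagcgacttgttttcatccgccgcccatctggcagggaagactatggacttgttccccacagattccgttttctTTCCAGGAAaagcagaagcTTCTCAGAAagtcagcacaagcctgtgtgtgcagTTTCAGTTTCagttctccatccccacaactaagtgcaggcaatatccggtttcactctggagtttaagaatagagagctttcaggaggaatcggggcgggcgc
Gbp3: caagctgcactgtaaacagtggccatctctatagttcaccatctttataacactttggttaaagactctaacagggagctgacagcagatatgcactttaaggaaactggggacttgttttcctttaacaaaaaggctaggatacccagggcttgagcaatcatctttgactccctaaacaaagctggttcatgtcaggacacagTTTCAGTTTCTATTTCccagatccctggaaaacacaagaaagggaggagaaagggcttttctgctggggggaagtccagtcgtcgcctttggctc
Gbp2b: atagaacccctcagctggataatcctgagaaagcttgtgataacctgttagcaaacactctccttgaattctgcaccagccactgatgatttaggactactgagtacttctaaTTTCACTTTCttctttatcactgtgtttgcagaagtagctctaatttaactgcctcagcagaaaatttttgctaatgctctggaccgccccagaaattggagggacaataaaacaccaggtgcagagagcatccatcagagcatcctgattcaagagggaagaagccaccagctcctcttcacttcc
Gbp2: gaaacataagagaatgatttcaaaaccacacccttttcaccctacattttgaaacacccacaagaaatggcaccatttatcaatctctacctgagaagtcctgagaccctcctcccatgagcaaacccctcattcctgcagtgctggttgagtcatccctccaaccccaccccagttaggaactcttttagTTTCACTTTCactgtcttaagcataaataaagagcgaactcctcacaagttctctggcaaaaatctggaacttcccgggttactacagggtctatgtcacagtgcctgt
Isg15: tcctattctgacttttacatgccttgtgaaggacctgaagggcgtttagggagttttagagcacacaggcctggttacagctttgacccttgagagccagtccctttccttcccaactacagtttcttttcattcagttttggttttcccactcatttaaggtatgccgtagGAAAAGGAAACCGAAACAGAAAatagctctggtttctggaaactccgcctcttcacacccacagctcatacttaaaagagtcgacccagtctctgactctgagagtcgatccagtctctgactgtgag
Rsad2: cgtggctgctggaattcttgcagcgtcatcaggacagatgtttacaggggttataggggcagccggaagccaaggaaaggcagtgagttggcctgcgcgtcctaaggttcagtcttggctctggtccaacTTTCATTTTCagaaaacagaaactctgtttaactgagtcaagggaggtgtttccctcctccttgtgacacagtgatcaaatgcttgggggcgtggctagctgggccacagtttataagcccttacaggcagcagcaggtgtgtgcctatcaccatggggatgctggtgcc

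The match nearest to the start in these windows began 53 bases before it in Gbp7, 39 in Gbp3, 137 in Gbp2b, 59 in Gbp2, 66 in Isg15 and 120 in Rsad2. Gbp7 also held 2 matches of the gamma-activated site letters, 106 and 87 bases before its start. The response element letters were present in windows of genes called lower in macrophages cultured alone than ex vivo (the 4 Gbp genes and Oas3). They were also present in that of Bst2, called higher in cells alone, and that of Rsad2, called higher over all cultured groups. They were absent from every window of Irf7, Cmpk2 and Isg20, which fell too, and from another window of Gbp3.

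**Figure D1:**
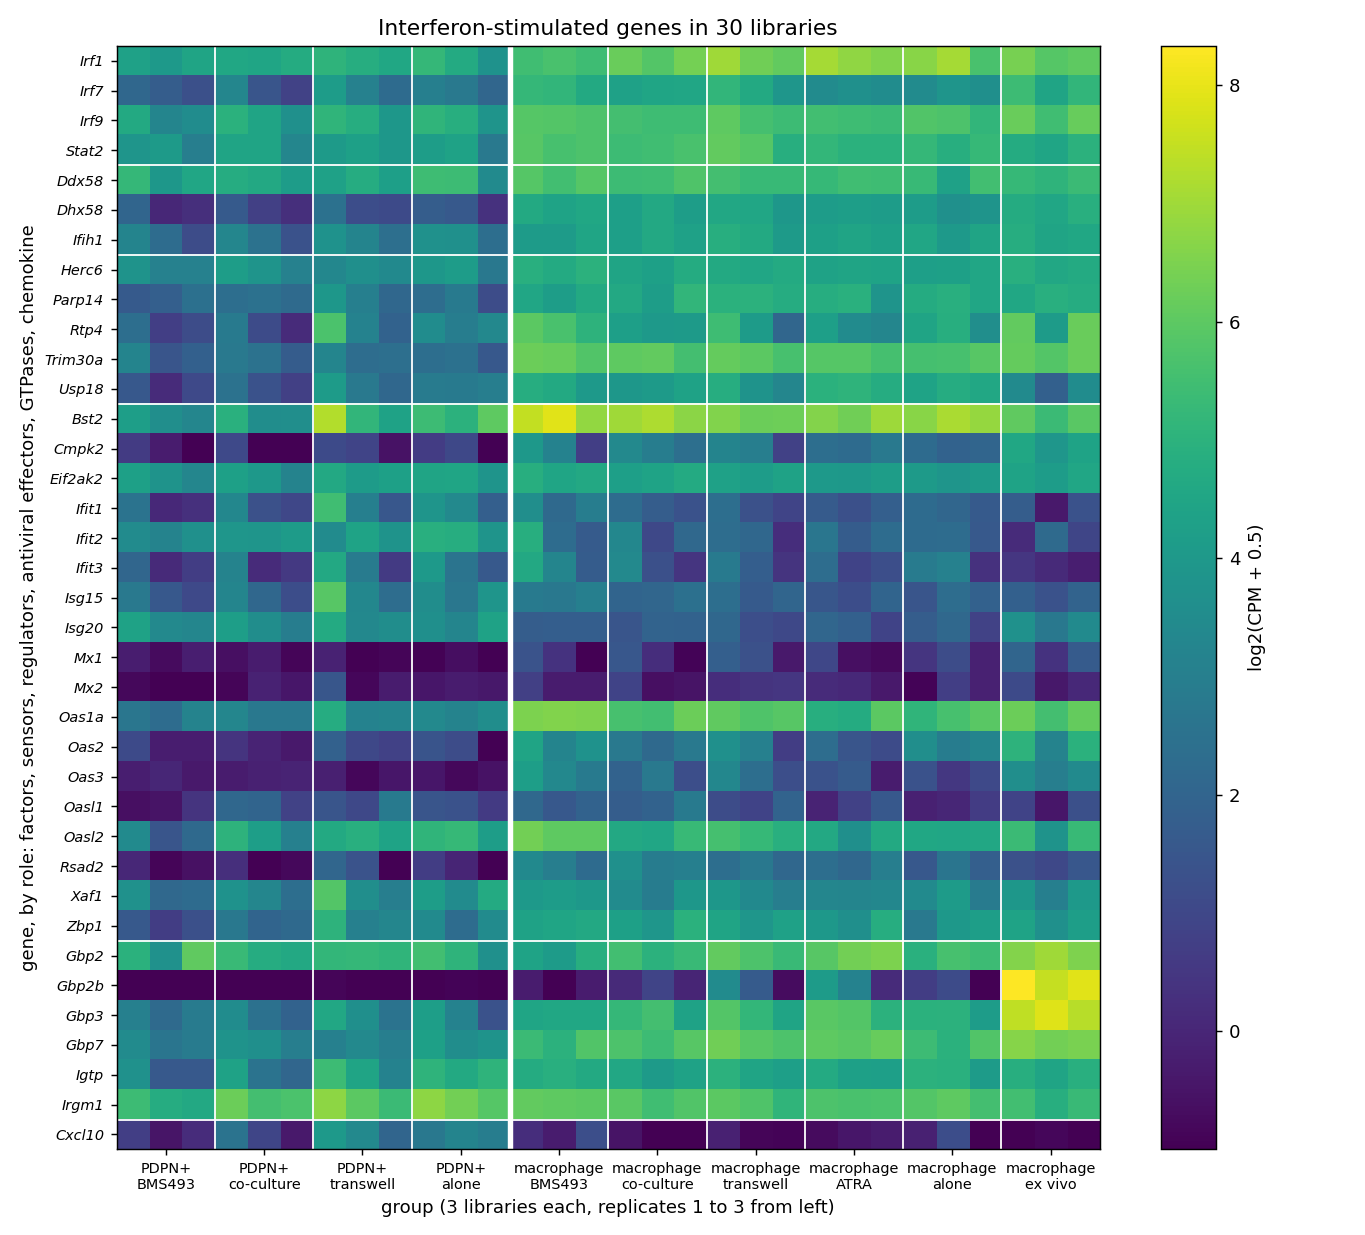
Level of each of the 37 members (rows, by role) in each of the 30 libraries (columns, 3 per group), as log2(CPM + 0.5), with PDPN+ groups left of the thick line and macrophage groups right of it. Gbp2b stands out in the 3 ex vivo macrophage libraries at 183 to 322 CPM and is at most 0.0453 CPM in any PDPN+ library.

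Part of the set differed between cultured and ex vivo macrophages, in both directions. In macrophages cultured alone against macrophages ex vivo, 11 of 37 members passed the test, 2 higher and 9 lower (edgeR's quasi-likelihood test, adjusted p under 0.05 over 17774 genes). Of all genes tested, 17.8% were called, 9.31% higher and 8.5% lower. At an unadjusted p under 0.05 there were 15 members, against 30.9% of all genes. The median log2 fold change of the 37 was -0.35, against 0.08 over all genes tested. In bulk RNA, fewer cells of a type and less RNA per cell cannot be told apart.

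The guanylate-binding proteins, GTPases that assemble on pathogen vacuoles, held the members that fell most. Gbp2b (chr3:142594847-142619179 in the GENCODE M21 annotation of GRCm38, forward strand, as for the other gene positions given unless stated) had 1.11, 1.67 and 0 CPM in macrophages cultured alone, against 322, 183 and 239.9 CPM ex vivo. The groups lay far apart. The fitted log2 fold change was -7.99 ± 1.58 (SE, adjusted p = 0.00275). Per length, on the authors' normalised RPKM scale, Gbp2b stood first among the 37 members ex vivo, at 89.7 ± 25.8 (SD, n = 3), and 33rd in cells cultured alone, at 0.339 ± 0.311.

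Gbp3 (chr3:142560026-142573209) had 30.7, 31.8 and 17.4 CPM in cells cultured alone, against 173, 234 and 160.3 CPM ex vivo. It fell 7.0-fold (log2 -2.81 ± 0.41, adjusted p = 0.000264). Gbp2 (chr3:142620602-142638008) had 29.8, 48.4 and 41.2 CPM in cells cultured alone, against 97.1, 127 and 91.4 CPM ex vivo, and fell 2.63-fold (adjusted p = 0.00219). Gbp7 (chr3:142530342-142550149) had 41.6, 30.9 and 54.9 CPM in cells cultured alone, against 100.1, 81.9 and 86.2 CPM ex vivo, and fell 2.10-fold (adjusted p = 0.00747). In none of these 4 genes did the groups overlap, and each was lower in 3 of 3 batches. Their family members are similar in sequence, so reads that align to more than 1 of them may be missing from the counts.

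The immunity-related GTPases did not share this fall. Irgm1, which acts in autophagy of pathogens, averaged 55.7 ± 9.02 CPM in cells cultured alone and 37.5 ± 8.17 CPM ex vivo (SD, n = 3 each), with no overlap but an adjusted p of 0.0939. Igtp averaged 25.9 ± 7.92 CPM in cells cultured alone and 26.2 ± 3.95 CPM ex vivo.

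Irf7, the factor that amplifies type I interferon production, fell 2.64-fold (chr7:141262706-141266481, reverse strand). It had 10.7, 14.0 and 12.2 CPM in cells cultured alone, against 41.8, 21.5 and 35.2 CPM ex vivo (log2 -1.40 ± 0.30, adjusted p = 0.00427). The other 3 transcription factors did not pass the test. Stat2 had 37.1, 28.7 and 38.0 CPM in cells cultured alone, against 26.2, 21.7 and 31.2 CPM ex vivo (adjusted p = 0.314). Irf1 had 102, 136 and 50.02 CPM in cells cultured alone, against 84.1, 58.2 and 64.3 CPM ex vivo (adjusted p = 0.33). For both genes the groups overlapped.

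Among the 18 antiviral effectors, 3 fell and 1 rose. Oas3, an oligoadenylate synthetase that activates RNase L, had 2.08, 0.935 and 1.57 CPM in cells cultured alone, against 11.6, 7.44 and 10.7 CPM ex vivo (adjusted p = 0.0203). Cmpk2, a mitochondrial nucleotide kinase, had 4.27, 3.33 and 3.62 CPM in cells cultured alone, against 23.2, 14.3 and 21.0 CPM ex vivo (adjusted p = 0.0327). Isg20, an exonuclease, had 2.88, 3.96 and 1.28 CPM in cells cultured alone, against 12.6, 6.18 and 10.46 CPM ex vivo (adjusted p = 0.0182). These groups did not overlap, and the falls were 6.43-fold, 5.17-fold and 3.53-fold. Among the RNA sensors Dhx58 fell 1.79-fold, with 17.2, 12.4 and 13.6 CPM in cells cultured alone, against 26.0, 22.4 and 29.3 CPM ex vivo (adjusted p = 0.0116).

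Bst2, the membrane protein that tethers budding virions, rose 2.16-fold. It had 103, 139.6 and 116 CPM in cells cultured alone, against 65.4, 40.5 and 61.2 CPM ex vivo (adjusted p = 0.00904). Usp18, which removes Isg15 from proteins and dampens receptor signalling, rose 2.91-fold, with 21.0, 27.3 and 23.4 CPM in cells cultured alone, against 10.52, 3.17 and 11.2 CPM ex vivo (adjusted p = 0.0229). Neither pair of groups overlapped.

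Ifit3, an RNA-binding effector, had 6.94, 8.07 and 0.769 CPM in cells cultured alone, against 0.908, 0.586 and 0.371 CPM ex vivo. The groups overlapped through replicate 3 and the adjusted p was 0.0682, but 0.00467 with the batch as a block. Isg15, the ubiquitin-like modifier, had 2.22, 4.52 and 3.22 CPM in cells cultured alone, against 3.13, 2.06 and 3.39 CPM ex vivo (adjusted p = 0.712). Cxcl10, a chemokine for T cells, had 0.416, 1.83 and 0 CPM in cells cultured alone, against 0, 0.0651 and 0 CPM ex vivo, where the group holds 3 reads in all.

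Some of these calls hung on single libraries or on the fit. Gbp2, Gbp2b, Gbp3, Gbp7 and Irf7 stayed under 0.05 under every alternative run for this comparison. Cmpk2 missed the threshold whenever any 1 of the 6 libraries was left out (adjusted p 0.0513 to 0.105). Oas3 missed it without replicate 2 or 3 of the cells alone or ex vivo replicate 1 (up to 0.0868), and Usp18 without replicate 2 of either group (up to 0.0732) or in a fit of only these 2 groups (0.0828). Dhx58 missed it without replicate 2 or 3 of the cells alone, ex vivo replicate 3 or batch mbb340, or in the fit of 2 groups (up to 0.0674), and Isg20 without replicate 3 of the cells alone, ex vivo replicate 1 or batch mbb340, or in the fit of 2 groups (up to 0.0684). Bst2 missed it without ex vivo replicate 2 (0.0526).

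**Figure D2:**
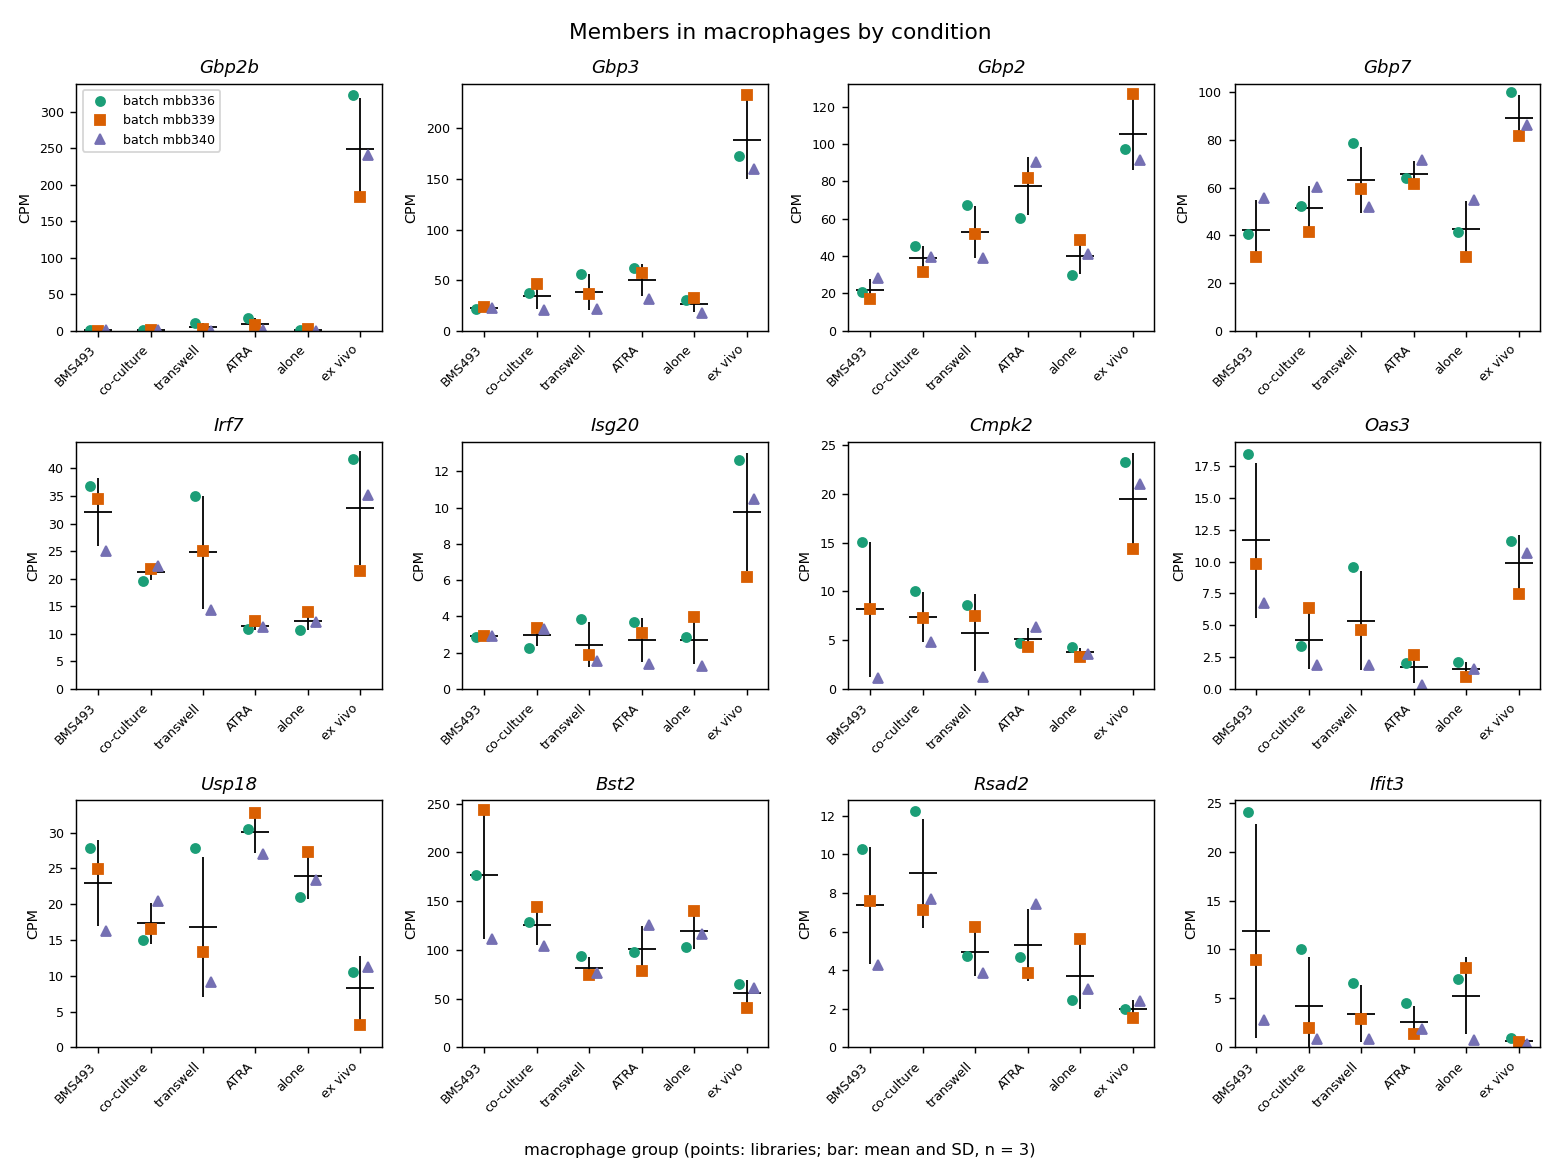
CPM of 12 members in the 6 macrophage groups (points: libraries, by batch; bar and line: mean and SD, n = 3, with lines cut at 0). The top row shows the 4 Gbp genes, with Gbp2b, Gbp3 and Gbp2 highest ex vivo at 91.4 CPM or more and lower in every cultured library; Irf7 lies between 25.1 and 36.8 CPM in the BMS493 group, above the 10.7 to 14.0 CPM of cells alone.

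With all 5 cultured groups set against the ex vivo cells, 16 of 37 members were called, 6 higher and 10 lower. Over all genes 25.6% were called, 12.7% higher and 12.9% lower. At an unadjusted p under 0.05 there were 19 members, against 36.7% of all genes. Since the cells alone are among the 15 cultured libraries, these calls are not independent of those above. The 4 Gbp genes again fell, Gbp2b by 173-fold and Gbp3 by 5.81-fold, and the highest Gbp2b value in the 15 cultured libraries was 16.8 CPM (ATRA replicate 1). Rsad2, an enzyme that makes a chain-terminating nucleotide, ranged from 2.46 to 12.3 CPM in the cultured libraries (median 5.63) against 1.52 to 2.42 CPM ex vivo, rose 2.86-fold and did not overlap (adjusted p = 0.00489). Stat2 rose 1.58-fold (28.3 to 67.0 CPM in the cultured libraries, median 41.2, and 21.7 to 31.2 CPM ex vivo, adjusted p = 0.0289), and Bst2 and Usp18 rose 2.06-fold and 2.57-fold. Ifit3 (adjusted p = 0.0439) and Irgm1 (adjusted p = 0.0498) rose too and Oas2 fell 3.51-fold (adjusted p = 0.00882). Irf7, Cmpk2, Isg20, Oas3 and Dhx58 were again called lower, as a mean over the 5 cultured groups. Among these genes only Isg20 had no overlap between cultured and ex vivo libraries. With BMS493 Irf7 had 36.8, 34.4 and 25.1 CPM, against 41.8, 21.5 and 35.2 CPM ex vivo. Oas3 had 18.5, 9.85 and 6.72 CPM with BMS493, against 11.6, 7.44 and 10.7 CPM ex vivo. Leaving out ex vivo replicate 1 gave 8 calls, and leaving out ex vivo replicate 3 gave 9. Irgm1 was lost in 15 alternatives (adjusted p up to 0.277), Dhx58 in 12 (up to 0.199), Ifit3 in 10 (up to 0.158) and Oas3 in 10 (up to 0.147). Stat2 was lost without the filter on low counts (0.0627) and without ex vivo replicate 1 (0.0989) or 2 (0.164).

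Several markers of other leukocytes moved with culture. The 4 dendritic cell markers summed to 8.26 to 206 CPM across the cultured macrophage groups, against 1.93 to 5.35 CPM ex vivo. Of these 4, Itgax, which macrophages can also express, had 4.34 to 197 CPM in the cultured libraries, against 0 to 0.25 CPM ex vivo. Flt3 had 0 reads in 4 of the 5 cultured groups, and Xcr1 was at most 1.28 CPM in any macrophage library. The 4 granulocyte markers summed to 4.37 to 123 CPM in the cultured groups, against 3.10 to 4.88 CPM ex vivo. Among them Ly6g had 0 reads in every cultured group and S100a9 had 0 ex vivo. Plasmacytoid dendritic cell markers other than Bst2 and Irf7 summed to 43.3 to 136 CPM in the cultured groups, against 39.7 to 56.0 CPM ex vivo. Whether other leukocytes were present or had a part in the member changes was not tested.

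ATRA did not give a called change in any member. Against macrophages cultured alone, 0 of 37 were called by edgeR (0.326% of all genes) and 0 by DESeq2, and 5 had an unadjusted p under 0.05 (7.6% of all genes). Of these 5, 4 were the Gbp genes that fell in culture, each higher with ATRA. Gbp2 had 60.3, 81.9 and 90.4 CPM with ATRA, against 29.8, 48.4 and 41.2 CPM alone, with no overlap (log2 0.93 ± 0.26, adjusted p = 0.214). Gbp7 averaged 65.8 ± 5.28 CPM with ATRA and 42.5 ± 12.05 CPM alone, and Gbp3 averaged 50.1 ± 16.04 CPM with ATRA and 26.6 ± 8.01 CPM alone (SD, n = 3 each). Gbp2b had 16.8, 8.31 and 0.618 CPM with ATRA, against 1.11, 1.67 and 0 CPM alone, where replicate 3 with ATRA lay inside the range of the cells alone. The adjusted p of these 3 ranged up to 0.593. Oas2 was the member on the other side, at 2.83 ± 1.51 CPM with ATRA and 9.23 ± 2.36 CPM alone (adjusted p = 0.542).

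The other anchor genes lay close together in these groups. Isg15 had 2.32, 1.78 and 3.52 CPM with ATRA, against 2.22, 4.52 and 3.22 CPM alone. Irf7 had 10.9, 12.3 and 11.2 CPM with ATRA, against 10.7, 14.0 and 12.2 CPM alone. The SE of the Irf7 log2 fold change was 0.29 around -0.13, and that of Isg15 was 0.34 around -0.42.

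Contact with PDPN+ cells gave 0 called members of 37 by edgeR against cells alone (0.698% of all genes), and 5 at an unadjusted p under 0.05 (12.8% of all genes). DESeq2 called 1, Oasl1, and so did the fit with the batch as a block (adjusted p = 0.0258). Oasl1, which in mice restrains the translation of Irf7, had 2.83, 3.34 and 6.76 CPM in co-culture macrophages, against 0.416, 0.50 and 1.10 CPM alone, with no overlap (log2 2.65 ± 0.73, adjusted p = 0.117). Irf7 had 19.6, 21.8 and 22.3 CPM in co-culture, against 10.7, 14.0 and 12.2 CPM alone, again apart (log2 0.74 ± 0.29, adjusted p = 0.303). Rsad2 had 12.3, 7.11 and 7.67 CPM in co-culture, against 2.46, 5.63 and 3.002 CPM alone (adjusted p = 0.195).

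Across the transwell membrane, 0 of 37 members were called by edgeR or DESeq2 against cells alone (0.0281% of all genes by edgeR) and 6 had an unadjusted p under 0.05 (9.56% of all genes). Irf7 had 34.9, 25.1 and 14.3 CPM in transwell macrophages, against 10.7, 14.0 and 12.2 CPM alone, which did not overlap (adjusted p = 0.307). Between contact and transwell, 0 members were called by either tool (0.0394% of all genes by edgeR) and 2, Bst2 and Rsad2, had an unadjusted p under 0.05 (4.47% of all genes). Bst2 averaged 126 ± 20.7 CPM in co-culture and 81.6 ± 10.9 CPM across the membrane (adjusted p = 0.996).

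In macrophages with BMS493 several antiviral effectors lay higher, and Gbp2 and Irf1 lay lower, short of the adjusted threshold. Against cells alone, 0 of 37 members were called by edgeR (0.737% of all genes), while 14 had an unadjusted p under 0.05 (14.4% of all genes), 12 higher (7.17% of all genes) and 2 lower (7.21%). The median log2 fold change of the 37 was 0.49, against -0.03 over all genes. With the batch as a block 4 members were called, Irf7 (adjusted p = 0.0338), Oas3 (0.0369), Oasl1 (0.0434) and Oasl2 (0.029), DESeq2 called 7, and without batch mbb340 the count was 5.

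Irf7 had 36.8, 34.4 and 25.1 CPM with BMS493, against 10.7, 14.0 and 12.2 CPM alone (log2 1.30 ± 0.30, adjusted p = 0.0598). Every BMS493 library lay above every library of the cells alone. Oasl2 (chr5:114896936-114912234), a synthetase-like protein, had 80.4, 64.8 and 64.6 CPM with BMS493, against 22.8, 22.8 and 23.8 CPM alone (log2 1.52 ± 0.38, adjusted p = 0.082). Oas3 had 18.5, 9.85 and 6.72 CPM with BMS493, against 2.08, 0.935 and 1.57 CPM alone (log2 2.86 ± 0.75, adjusted p = 0.0966).

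Isg15 had 6.76, 6.18 and 7.68 CPM with BMS493, against 2.22, 4.52 and 3.22 CPM alone (adjusted p = 0.219). Stat2, which acts in the type I complex, had 59.8, 48.5 and 52.9 CPM with BMS493, against 37.1, 28.7 and 38.0 CPM alone (adjusted p = 0.332). The groups of both genes were apart. Ifit3 had 24.0, 8.93 and 2.80 CPM with BMS493, against 6.94, 8.07 and 0.769 CPM alone, and these groups overlapped.

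The 2 members on the lower side are targets of interferon gamma as well. Irf1 had 43.5, 49.6 and 43.3 CPM with BMS493, against 102, 136 and 50.02 CPM alone (log2 -1.17 ± 0.33, adjusted p = 0.124). Gbp2 had 20.6, 17.0 and 28.4 CPM with BMS493, against 29.8, 48.4 and 41.2 CPM alone (log2 -0.93 ± 0.26, adjusted p = 0.125). With ATRA, which was compared with the same 3 control libraries, Gbp2 had lain at 60.3 to 90.4 CPM.

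Against the co-culture, 0 members were called by edgeR (0.85% of all genes) and 1, Oasl2, by DESeq2, and 7 had an unadjusted p under 0.05 (8.8% of all genes). Oasl2 had 24.5, 22.3 and 38.5 CPM in co-culture, below the 64.6 to 80.4 CPM with BMS493 (log2 1.27 ± 0.37, adjusted p = 0.182). Gbp2 had 20.6, 17.0 and 28.4 CPM with BMS493, against 45.2, 31.4 and 39.3 CPM in co-culture (log2 -0.84 ± 0.26, adjusted p = 0.234). Cxcl10 had 0.657, 0.318 and 1.88 CPM with BMS493, against 0.211, 0 and 0 CPM in co-culture. Both BMS493 comparisons use the same 3 BMS493 libraries. The fibroblast markers lay at 465 CPM or more in each BMS493 and co-culture macrophage library. In transwell macrophages they lay at 32.1, 42.7 and 427 CPM. The part of these markers in the member values was not tested. Oasl1 and Oasl2 are neighbouring genes of similar sequence, so reads shared between them may be missing from the counts.

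**Figure D3:**
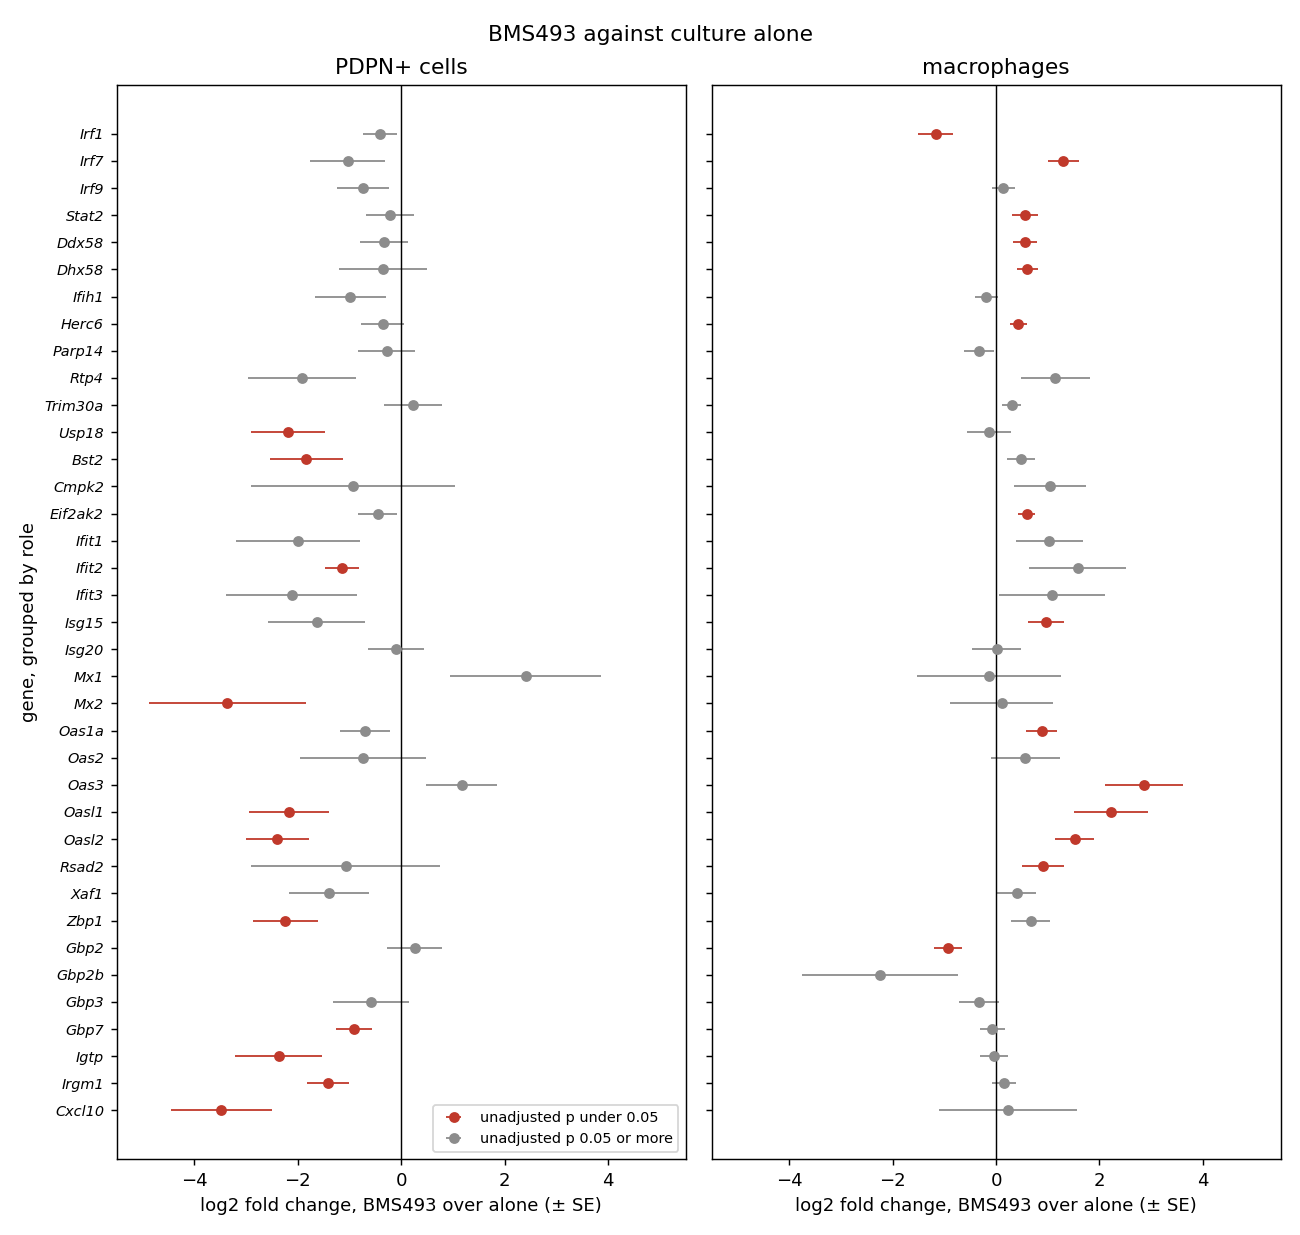
Log2 fold change of BMS493 over culture alone (± SE, edgeR) for each member, in PDPN+ cells (left, 36 members tested) and macrophages (right, 37 tested), with an unadjusted p under 0.05 in red. The 11 red genes on the left lie below 0, while 12 of 14 on the right lie above it, and Irf1 and Gbp2 lie below. The BMS493 and alone groups may also differ in contact with the other cell type.

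In PDPN+ cells the same comparison leaned the other way. Gbp2b did not pass the filter on low counts, so 36 members were tested. Against PDPN+ cells alone, 0 were called by edgeR (0.24% of all genes) and 6 by DESeq2 (Cxcl10, Ifit2, Irgm1, Oasl2, Usp18 and Zbp1). At an unadjusted p under 0.05 there were 11, against 10.8% of all genes, and all 11 were lower, against 5.26% of all genes. The median log2 fold change was -0.96, against -0.03 over all genes.

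Oasl2 had 10.7, 2.24 and 4.02 CPM in PDPN+ cells with BMS493, against 34.0, 37.3 and 17.8 CPM alone (log2 -2.39 ± 0.61, adjusted p = 0.172). Cxcl10 had 1.16, 0.224 and 0.641 CPM with BMS493, against 6.20, 8.84 and 7.34 CPM alone (log2 -3.48 ± 0.98, adjusted p = 0.201). Zbp1, a sensor of Z-form nucleic acid, had 2.54, 1.12 and 1.92 CPM with BMS493, against 10.6, 4.39 and 10.9 CPM alone (log2 -2.24 ± 0.62, adjusted p = 0.198). None of these groups overlapped. Isg15 had 6.32, 2.44 and 1.60 CPM with BMS493, against 11.5, 5.92 and 14.2 CPM alone, where replicate 1 with BMS493 lay above replicate 2 alone (adjusted p = 0.535). Gbp2 had 30.3, 12.8 and 66.6 CPM with BMS493, against 44.98, 33.4 and 12.4 CPM alone.

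The difference between the cell types was tested in a fit of all 30 libraries. This test was added after the values had been seen. For BMS493 against alone, 3 of 37 members had a lower change in PDPN+ cells than in macrophages (1.09% of all 20987 genes). They were Oasl1 (log2 difference -4.42 ± 1.09, adjusted p = 0.0337), Oasl2 (-3.96 ± 0.73, adjusted p = 0.00352) and Zbp1 (-2.94 ± 0.72, adjusted p = 0.0314). At an unadjusted p under 0.05 there were 17 members, against 12.6% of all genes, and all were lower in PDPN+ cells, against 7.5%. With the batch as a block 6 members were called, the 3 above and Igtp, Irf7 and Irgm1. Oasl1 and Zbp1 were each lost in 9 of the 12 fits that left out 1 library, with adjusted p up to 0.103 and 0.0982.

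The same difference for BMS493 against co-culture gave 0 members by edgeR (0.00953% of all genes) and 1, Oasl2, by DESeq2, with 4 at an unadjusted p under 0.05 (4.03%). For co-culture against alone it gave 0 by either tool (0.986% by edgeR) and 2 unadjusted (10.9%). For transwell against alone it gave 0 by either tool (0% by edgeR) and 1 unadjusted (4.44%).

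Macrophage contact and the membrane gave no called member in PDPN+ cells. For co-culture against alone, 0 of 36 were called by either tool (0% of all 19134 genes by edgeR) and 0 had an unadjusted p under 0.05, against 9.39% of all genes. For transwell against alone, 0 were called by either tool (0% of all genes by edgeR) and 0 had an unadjusted p under 0.05 (2.23% of all genes). For contact against the membrane, 0 were called by either tool (0.00523% of all genes by edgeR), while 7 had an unadjusted p under 0.05 (5.05% of all genes) and all 7 were lower with contact (2.35% of all genes). For BMS493 against co-culture, 0 were called by edgeR (0.0157% of all genes) and 1, Oasl1, by DESeq2, with 3 at an unadjusted p under 0.05 (3.05% of all genes). Oasl1 had 0.159, 0.199 and 0.81 CPM with BMS493, against 3.79, 3.51 and 1.31 CPM in co-culture.

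Transwell replicate 1, of batch mbb336, stood above the other PDPN+ libraries in several of these genes. Isg15 had 9.11, 3.86 and 1.83 CPM in co-culture PDPN+ cells, against 59.4, 9.59 and 4.53 CPM across the membrane. Rtp4 had 6.55, 1.71 and 0.619 CPM in co-culture, against 51.7, 8.27 and 3.30 CPM across the membrane. Bst2 had 29.5, 11.5 and 11.7 CPM in co-culture, against 152, 35.3 and 20.1 CPM across the membrane. In each gene transwell replicate 1 was far above the rest, and the other transwell values overlapped with co-culture across batches, while within each of the 3 batches the co-culture library was the lower one. The macrophage markers were also highest in transwell replicate 1 among the PDPN+ libraries of the transwell group and of cells alone, at 543 CPM. In the co-culture PDPN+ libraries they were higher still, at 1559 to 2329 CPM. The part of these markers in the member levels was not tested. Of the 7, Zbp1 was the gene without overlap, at 6.21, 3.53 and 4.09 CPM in co-culture, against 32.3, 7.94 and 9.12 CPM across the membrane (log2 -1.92 ± 0.61, adjusted p = 0.805).

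**Figure D4:**
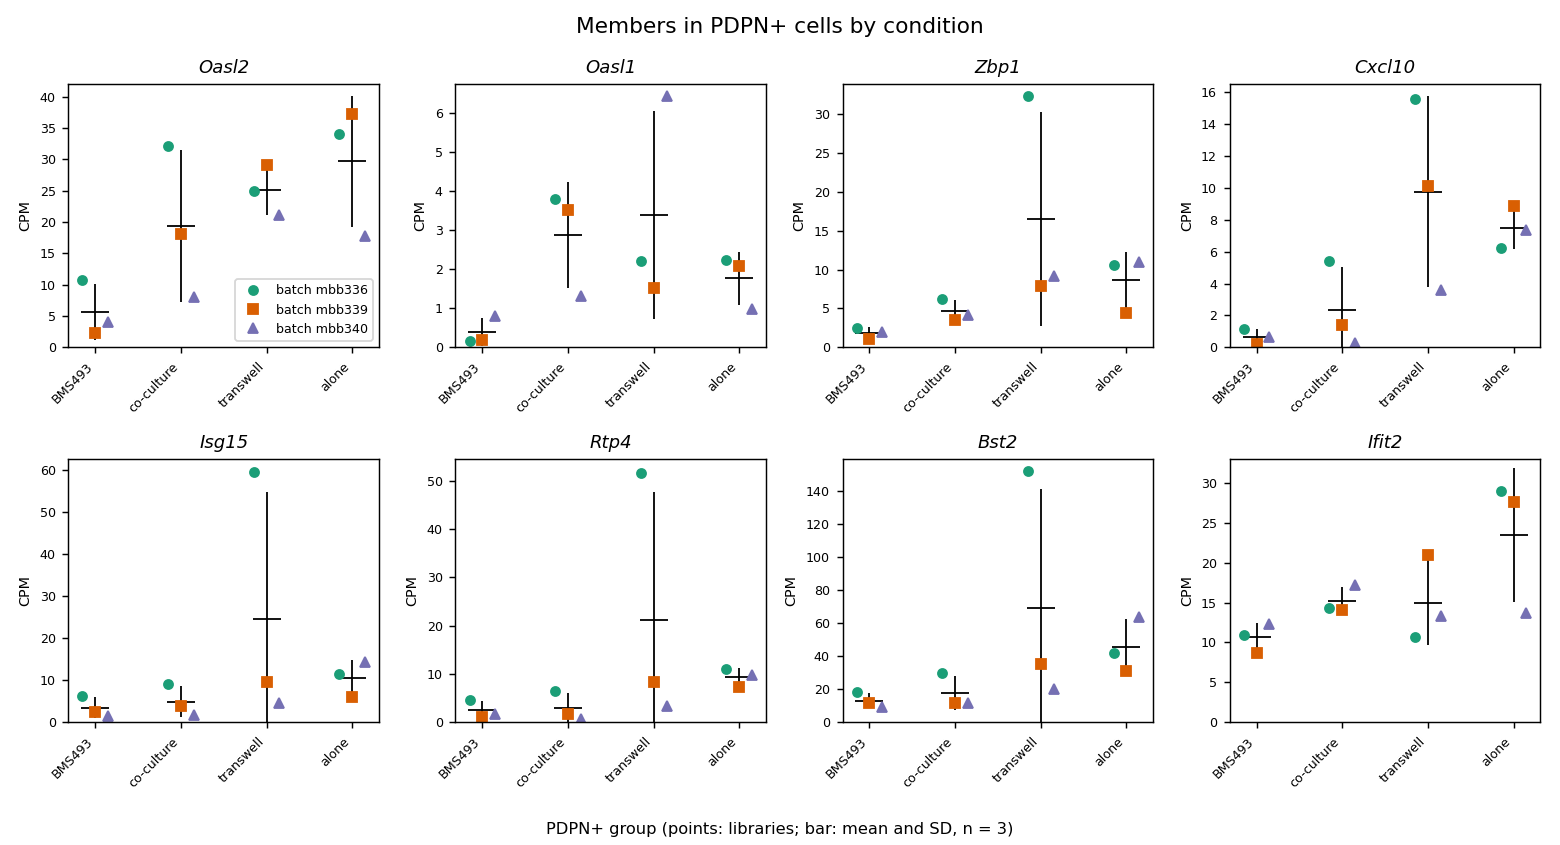
CPM of 8 members in the 4 PDPN+ groups (points: libraries, by batch; bar and line: mean and SD, n = 3, with lines cut at 0). The batch mbb336 transwell library is highest for Isg15 (59.4 CPM), Rtp4 (51.7 CPM) and Bst2 (152 CPM), and Oasl2 with BMS493 lies at 2.24 to 10.7 CPM, below the 17.8 to 37.3 CPM of cells alone.

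The makeup of the PDPN+ libraries moved with these groups. The 5 mesothelial markers summed to 357, 74.8 and 12.3 CPM with BMS493, to 618, 105 and 35.6 CPM in co-culture and to 1006, 936 and 106 CPM across the membrane, against 1726, 1464 and 872 CPM in cells alone. Sorted cell numbers differed as well, at 25000, 3730 and 2148 cells in co-culture. The part of either in the member levels was not tested.

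Without treatment, the set differed between the cell types. In PDPN+ cells alone against macrophages alone, 18 of 37 members were called, 3 higher and 15 lower (38.9% of all 20987 genes, 22.3% higher and 16.6% lower), and 23 had an unadjusted p under 0.05 (47.1%). Leaving out any 1 of the 6 libraries gave 12 to 16 calls, and the fit with the batch as a block gave 22. The median log2 fold change was -1.05, against 0.08 over all genes.

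Trim30a, which limits inflammatory signalling, was lower, at 4.63, 5.03 and 2.49 CPM in PDPN+ cells against 46.8, 49.0 and 59.3 CPM in macrophages (log2 -3.72 ± 0.43, adjusted p = 3.86e-07). So were 3 of the 4 transcription factors, Irf1, Irf9 and Stat2, and the other one, Irf7, was called lower with the batch as a block (adjusted p = 0.0302, against 0.106 without it). Irf9 (adjusted p = 0.0489) was lost in 8 alternatives, among them no filter on low counts (0.0961) and leaving out PDPN+ replicate 3 (0.21), and Stat2 was lost without that library (0.0566) and in a fit of only these 2 groups (0.0511). Irf1 had 36.6, 25.7 and 13.0 CPM in PDPN+ cells, against 102, 136 and 50.02 CPM in macrophages (adjusted p = 6.52e-05). Stat2 had 17.8, 20.3 and 6.32 CPM in PDPN+ cells, against 37.1, 28.7 and 38.0 CPM in macrophages (adjusted p = 0.00921). Parp14, an ADP-ribosyltransferase, was 6.24-fold lower and Oas1a 4.89-fold lower. Oas3 averaged 0.166 ± 0.0799 CPM in PDPN+ cells and 1.53 ± 0.574 CPM in macrophages. Gbp2b had 1 read in the 3 PDPN+ libraries, against 109 in macrophages alone, and the ratio of macrophages to PDPN+ cells was 149 (exact 95% binomial interval 26.1 to 5921, counting error only).

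Higher in PDPN+ cells were 3 members. Cxcl10 had 6.20, 8.84 and 7.34 CPM in PDPN+ cells, against 0.416, 1.83 and 0 CPM in macrophages (log2 3.24 ± 1.26, adjusted p = 0.0452). Ifit2, an RNA-binding effector, had 29.0, 27.5 and 13.7 CPM in PDPN+ cells, against 4.30, 4.41 and 2.53 CPM in macrophages (adjusted p = 0.0123). Isg20 had 12.1, 8.92 and 20.5 CPM in PDPN+ cells, against 2.88, 3.96 and 1.28 CPM in macrophages (adjusted p = 0.00129). None of these groups overlapped. Cxcl10 was lost in 8 alternatives, among them no filter on low counts (adjusted p = 0.0528), a fit of only these 2 groups (0.0934) and leaving out macrophage replicate 1 (0.14), and Ifit2 without macrophage replicate 3 (0.0513). Isg15 had 11.5, 5.92 and 14.2 CPM in PDPN+ cells, against 2.22, 4.52 and 3.22 CPM in macrophages (adjusted p = 0.067). Per length, Bst2 stood first among the members in both cell types, at 59.0 ± 23.4 normalised RPKM in PDPN+ cells and 154 ± 25.1 in macrophages (SD, n = 3 each).

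The mean level of the set was highest in batch mbb336 in most groups. In 9 of the 10 groups, including all 4 PDPN+ groups, the library of batch mbb336 had the highest mean of the 37 members relative to its group mean on the log2(CPM + 0.5) scale, and the exception was the macrophages alone, where batch mbb339 was highest. In transwell PDPN+ cells the batch mbb336 library lay 0.76 above its group mean, and in transwell macrophages 0.51 above. Over all genes tested the same libraries lay at -0.06 and -0.03. In transwell macrophages 31 of 37 members were highest in that library (83.8%, against 32.9% of all genes tested), and in PDPN+ co-culture 31 of 37 were (83.8%, against 37.4%). In macrophages alone, 8 of 37 members were highest in the batch mbb336 library (21.6%, against 31.9%). In ATRA-treated macrophages 14 of 37 were (37.8%, against 30.1%), and in co-culture macrophages 14 of 37 (37.8%, against 31.1%). Batch 340 held the lowest mean in 7 of the 10 groups.

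**Figure D5:**
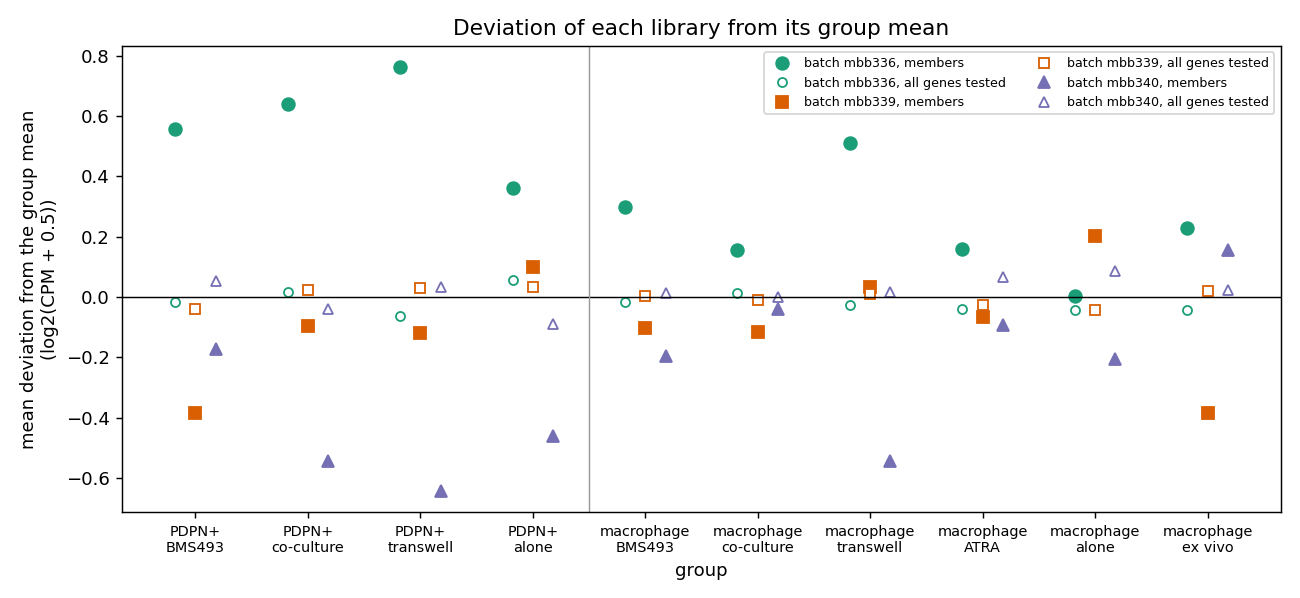
Mean deviation of each library from its group mean on the log2(CPM + 0.5) scale, over the 37 members (filled) and over all genes tested (open), by batch. The batch mbb336 library is highest for the members in 9 of 10 groups, reaching 0.76 in transwell PDPN+ cells, while all open symbols lie between -0.09 and 0.09.

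The members varied together more closely in PDPN+ cells than in macrophages, though the same measure over all genes was not computed. The median Spearman rho over the 153 pairs of antiviral effectors was 0.44 across the 12 PDPN+ libraries and 0.26 across the 18 macrophage libraries, as a description of points that share batches and conditions. Isg15 was most like Xaf1 in PDPN+ cells (rho 0.95), and Gbp2b was most like Gbp3 in macrophages (rho 0.92).

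Interferon transcripts themselves were near the limit of detection. Of 10 ligand genes none passed the filter, and Ifnb1 had 0 reads in all 30 libraries, as did 6 others. Ifng had 23 reads in transwell macrophage replicate 1 and 13 in PDPN+ co-culture replicate 3, and 0 in the other 28 libraries. The NK cell markers summed to 2.92 CPM in that transwell library, the highest of the 30, and to 0.714 CPM in that PDPN+ co-culture library. The T cell markers summed to 7.81 CPM in the same transwell library. They reached 12.2 CPM in replicate 1 of the macrophages alone, which had 0 Ifng reads. The source of the Ifng reads was not tested.

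Some receptor genes rose with culture. In macrophages alone against ex vivo, 3 of 12 receptor and signalling genes were called (25%, against 17.8% of all genes) and all 3 were higher. Ifngr2 had 235, 291 and 316 CPM in cells cultured alone, against 85.7, 65.7 and 80.5 CPM ex vivo (3.65-fold). Ifnar1 had 249.6, 126 and 307 CPM in cells cultured alone, against 129, 103 and 141 CPM ex vivo, with an overlap (adjusted p = 0.0209). Il10rb rose 1.78-fold. Of 12 tested inducers 4 were higher and 0 lower (33.3% called): Tlr7, Tmem173, Tbk1 and Irf8. Of 34 other interferon-stimulated genes tested, 1 was higher and 4 were lower, a share of 14.7% that was near that of all genes. Slfn1 fell 14.0-fold, with 1.32, 1.93 and 6.44 CPM in cells cultured alone, against 53.3, 39.9 and 41.3 CPM ex vivo, and Pml, Phf11d and Sp100 fell 2.59-fold, 2.37-fold and 1.66-fold. Cd274 had 43.1, 71.3 and 491 CPM in cells cultured alone, against 10.3, 9.85 and 6.98 CPM ex vivo (adjusted p = 0.0345).

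With BMS493, 1 inducer of 12 tested was called in macrophages, against 0.737% of all genes for BMS493 against alone and 0.85% against co-culture. Ikbke, a kinase upstream of Irf3 and Irf7, had 33.9, 18.2 and 50.1 CPM with BMS493, against 90.8, 70.8 and 112 CPM alone (log2 -1.48 ± 0.30, adjusted p = 0.0314) and against 153, 145 and 131 CPM in co-culture (log2 -2.09 ± 0.30, adjusted p = 0.00378). None of the 12 receptor and signalling genes was called against cells alone by edgeR, with 1 at an unadjusted p under 0.05, and none of the 10 class I presentation genes, with 2 (14.4% of all genes).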

How the data were processed

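RNA of 30 libraries was measured by polyA RNA-seq. Per the submitters' processing notes, reads were aligned with GSNAP to GRCm38. The sources used here give no tool versions, annotation or strand setting of the counting, and reads of overlapping or antisense genes cannot be told apart. The deposited counts are whole numbers of uniquely aligning reads per gene model, per the file headers. The authors also deposited nRPKM, RPKM adjusted by size factors per the file headers, used here only to order genes by level. Gene models without a symbol (192) held 0.0358% of counts and were left out of library sizes and tests.

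Counts were tested with edgeR 4.0.16 (TMM scaling, filterByExpr, quasi-likelihood F test, Benjamini-Hochberg adjustment over all genes tested), in R 4.3.3, in 3 fits: 18 macrophage libraries (17774 genes), 12 PDPN+ libraries (19134 genes) and all 30 libraries (20987 genes). A call is an adjusted p under 0.05. SE is the log2 fold change over the root of F. CPM are TMM-scaled over all 30 libraries. DESeq2 1.42.0, DESeq2 size factors, no low count filter, a replicate block, leaving out each library or batch mbb340, and a fit of only the groups compared were alternatives. The test code was tested on simulated data. Replicates 1, 2 and 3 are batches mbb336, mbb339 and mbb340 per the labels, which pairs the libraries. The deviations of same-numbered macrophage libraries had a median correlation of 0.263 (45 pairs, -0.0986 to 0.733) and those of PDPN+ libraries 0.186 (18 pairs, -0.369 to 0.687). No replicate pair agreed within sampling noise (lowest chi-square per degree of freedom 49.0). Depth limits precision for members with few reads, and intervals cover counting error only.

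The members and lists were chosen with earlier results of these data known. Values in every library are given for called members whose groups did not overlap (up to 8 a direction) and for the anchors Isg15, Ifit3, Irf7, Stat2, Irf1, Gbp2 and Cxcl10. Other members shown with values were mostly chosen for an unadjusted p under 0.05, after their values were seen. Igtp, which did not reach it in macrophages alone against ex vivo, was shown beside Irgm1.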

Additional observations from a re-analysis of the deposited data

Results flagged for a closer look

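For 3 members the change with BMS493 against culture alone differed between the cell types in a test of the difference itself (edgeR's quasi-likelihood test over 30 libraries, added after the values had been seen). The log2 difference, PDPN+ cells minus macrophages, was -3.96 for Oasl2, whose adjusted p stayed under 0.05 under every alternative run. Oasl2 averaged 5.65 ± 4.46 CPM with BMS493 and 29.7 ± 10.4 CPM alone in PDPN+ cells, and 69.9 ± 9.05 CPM with BMS493 and 23.1 ± 0.583 CPM alone in macrophages (SD, n = 3 each). It was -4.42 for Oasl1, which averaged 0.389 ± 0.365 CPM with BMS493 and 1.77 ± 0.677 CPM alone in PDPN+ cells, and 3.26 ± 0.774 CPM with BMS493 and 0.672 ± 0.372 CPM alone in macrophages. It was -2.94 for Zbp1, whose adjusted p was 0.133 without batch mbb340. Zbp1 had 20.1, 22.0 and 24.4 CPM with BMS493 and 6.42, 15.3 and 18.1 CPM alone in macrophages. In co-culture without BMS493, Oasl1 had 2.83, 3.34 and 6.76 CPM in macrophages and 3.79, 3.51 and 1.31 CPM in PDPN+ cells. Zbp1 had 19.3, 14.4 and 30.7 CPM in co-culture macrophages and 6.21, 3.53 and 4.09 CPM in co-culture PDPN+ cells. For BMS493 against co-culture the difference gave 0 called members by edgeR.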

How the results depend on the processing

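Over 141 gene and comparison pairs and 2041 values under alternatives, none changed direction, 136 lost their call and 65 gained one. The called members of macrophages alone against ex vivo (11) numbered 7 to 10 with 1 library left out and 8 to 13 under other settings. For all cultured macrophages (16) these ranges were 8 to 16 and 14 to 19. For PDPN+ cells against macrophages (18) they were 12 to 16 and 12 to 22. Where no member was called, DESeq2 called 1 for macrophage co-culture against alone, 1 for macrophage BMS493 against co-culture, 7 for macrophage BMS493 against alone, 1 for PDPN+ BMS493 against co-culture, 6 for PDPN+ BMS493 against alone and 1 for the difference of BMS493 against co-culture. The replicate block called 1 for macrophage co-culture and 4 for macrophage BMS493 against alone, which had 5 without batch mbb340, 1 with DESeq2 size factors, 1 in a fit of only these groups and 0 to 1 with 1 library left out. The difference of BMS493 against alone (3) had 6 by DESeq2, 6 with the replicate block, 2 without batch mbb340 and 1 to 4 with 1 library left out, and that of BMS493 against co-culture had 0 to 1. The cause of these shifts was not tested.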

Other observations

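Beyond the 37 members, antigen presentation and receptor genes also differed between PDPN+ cells and macrophages, both cultured alone (edgeR's quasi-likelihood test over 20987 genes, 38.9% of them called). Of 10 genes of class I presentation 9 were lower in PDPN+ cells and 0 higher. H2-K1, a class I heavy chain, had 108, 73.6 and 60.6 CPM in PDPN+ cells, against 945, 1952 and 927 CPM in macrophages (log2 -4.03 ± 0.39, adjusted p = 3.18e-08). Nlrc5, the transactivator of class I genes, was lower by a log2 of -6.22 ± 0.88 (adjusted p = 6.15e-06). Of 12 receptor and signalling genes 6 were lower and 1, the interferon lambda receptor gene Ifnlr1, was higher (log2 4.04 ± 1.04, adjusted p = 0.0036).

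Of the 6 GTPases among the members 3 were called lower and 0 higher in PDPN+ cells. Of 35 other interferon-stimulated genes tested, 6 were higher and 13 lower (22.3% and 16.6% of all genes). The interferon-inducible GTPase genes called higher in that list were Tgtp1, Tgtp2 and Ifi47. Iigp1, Irgm2, Gbp4, Gbp5, Gbp6, Gbp8 and Gbp9 were not called. Tgtp1 had 109.7, 58.4 and 62.3 CPM in PDPN+ cells, against 0.416, 1.22 and 0 CPM in macrophages (adjusted p = 0.00743), and its near-identical neighbour Tgtp2 had 109.7, 55.6 and 60.3 CPM in PDPN+ cells, against 3.78, 24.7 and 2.23 CPM in macrophages (adjusted p = 0.0155). Reads of this pair may be split or lost between them. Ifi47 had 85.7, 64.6 and 71.5 CPM in PDPN+ cells, against 19.9, 34.2 and 22.6 CPM in macrophages (adjusted p = 0.00433). None of these groups overlapped.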
